A study of Mus musculus with 2 samples.

Results

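The 5 NF-κB subunit genes (*Nfkb1*, *Nfkb2*, *Rel*, *Rela* and *Relb*) and 5 genes of the IκB family (*Nfkbia*, *Nfkbib*, *Nfkbie*, *Nfkbiz* and *Bcl3*) were taken by symbol from a table of 37451 genes. All 10 were found. The table gives their mRNA levels in primary bone marrow-derived macrophages (BMDMs) as FPKM, the fragments of a gene scaled to its exon length and to the size of the library, so that levels can be compared between genes. There was 1 library of WT C57BL/6 BMDMs and 1 library of ΔM BMDMs, also C57BL/6. The ΔM cells carried floxed TTP alleles and LysMCre (TTP fl/fl LysMCre), a Cre expressed from the lysozyme M locus that deletes TTP in myeloid cells. Both came from mice of 7 to 9 weeks, the WT from littermates, and both were grown in medium of L929 cells as the source of CSF-1, labeled with 4-thiouridine (100 μM, 16 h) and then given LPS at 10 ng/ml during 6 h. The time is that of the treatment protocol, while the sample titles end in LPS7, a number whose meaning is not given in the sources used here. The libraries were made as expression controls for the mapping of TTP binding, and the comparison asks how mRNA levels differ when TTP is absent. Neither genotype was replicated, so no difference was tested and no p-value is given.

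TTP (tristetraprolin, encoded by *Zfp36*) binds AU-rich elements in 3′ UTRs and speeds up the decay of many inflammatory mRNAs. NF-κB is a family of dimeric transcription factors that LPS activates through TLR4. In resting macrophages the dimers are held in the cytoplasm by IκB proteins. After stimulation the IKK kinases phosphorylate the IκBs, which are then ubiquitinated and degraded, so that the dimers enter the nucleus. Several NF-κB and IκB genes are themselves NF-κB targets, which gives the pathway its negative feedback.

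The number of fragments was estimated from the steps between low FPKMs at about 37100000 in WT and 32600000 in ΔM. Ranges in parentheses after an FPKM are approximate 95% Poisson intervals from these depths, which cover counting error only and use the median annotated transcript length of the gene. *Zfp36* reached 65.3 FPKM in WT and 16.7 in ΔM, a log2 ratio of ΔM to WT of -1.90 after adding 1 FPKM to both values. The 8 macrophage markers were present in both libraries and summed to 4001 FPKM in WT against 2864 in ΔM. Most of that distance lay in *Lyz2*, the gene of the LysMCre locus, which was at 2481 and 1356 FPKM. Markers of other cells were low in both libraries. The 6 neutrophil markers summed to 0.11 FPKM in WT against 0.48 in ΔM, and the 4 fibroblast markers to 0.55 and 0.30 FPKM. *Cd3e*, *Cd3g*, *Ly6g*, *Ngp* and *Elane* were listed at 0 in both. Of the 4 T cell markers only *Lck*, a kinase not restricted to T cells, was above 1 FPKM, at 9.58 FPKM in WT against 10.8 in ΔM. A lower level of an mRNA in bulk cells can come from fewer cells that express it or from less RNA per cell, and these cannot be told apart.

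The sequences that bear on the members' regulation are shown first. The study mapped TTP binding by crosslinking in WT BMDMs under the same LPS treatment, and its list for 6 h of LPS gives 6 sites in the 3′ UTR of *Nfkbia*. The longest 3 of the sites of at most 30 nt are shown because they are RNA bound by TTP within this gene group. Each matched the annotated *Nfkbia* transcript once, in the last exon on the minus strand of chromosome 12 (build NCBIM37, equal to mm9). Capitals mark the AU-rich pentamer ATTTA.
Nfkbia site, chr12:56590662-56590685: ggttcatgtttgtgggattttttt
Nfkbia site, chr12:56590594-56590620: ccacgttttATTTAttgtgcttttgat
Nfkbia site, chr12:56590638-56590651: ggaggtgattttcc
Of the 6 sites, 1 holds the pentamer, the site of 27 nt.

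The longer AU-rich word bound by TTP is the heptamer TATTTAT. It was searched in the annotated 3′ UTR of the coding transcript with the longest coding region of each gene, on the transcript strand only. The heptamer contains the pentamer ATTTA, so a heptamer is also counted as a pentamer. *Nfkbia* held 2 heptamers and the other 9 genes held 0. Among 7935 protein-coding genes that averaged 1 FPKM or more and had an annotated 3′ UTR, 24.9% held at least 1. The windows of both *Nfkbia* heptamers, in capitals, show where they lie.
Nfkbia heptamer, chr12:56590596-56590622: gaccacgtttTATTTATtgtgcttttg
Nfkbia heptamer, chr12:56590407-56590433: ctaagatgtaTATTTATtaaacagatt
The first of them starts 297 nt into the 3′ UTR of 511 nt and lies in the TTP site of 27 nt. The second starts at 486 nt, near the 3′ end of the mRNA, and 5 of its 7 bases lie in the TTP site of 68 nt, the longest of the 6. The pentamer was present 4 times in *Nfkb1*, 4 times in *Nfkbiz*, 2 times in *Rel* and 1 time in *Nfkb2*, outside any heptamer. *Rela*, *Relb*, *Nfkbib*, *Nfkbie* and *Bcl3* held 0 pentamers, although the 3′ UTR of *Nfkbie* is 1102 nt long. Of all 3′ UTRs searched 63.1% held the pentamer. The 3′ UTRs with pentamers were richer in A and T, at 64.6% in *Rel*, 64.1% in *Nfkbiz*, 62.2% in *Nfkbia* and 60.4% in *Nfkb1*, than the 5 without, which ran from 44.3% in *Nfkbib* to 49.8% in *Nfkbie*. *Nfkb2* was the exception, with 1 pentamer in a 3′ UTR of 196 nt at 45.9% A and T. These are letters in a sequence and not measured binding.

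**Figure D1:**
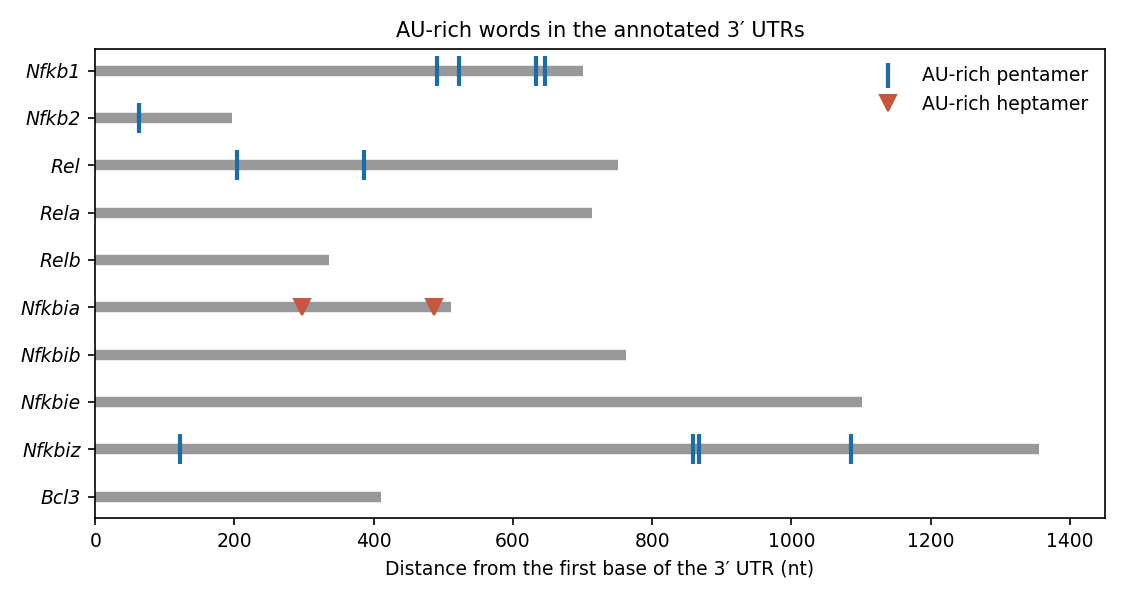
Map of AU-rich words in the annotated 3′ UTRs of the 10 genes. The x axis is the distance in nt from the first base of the 3′ UTR and each gray bar ends where the 3′ UTR ends. Blue ticks are pentamers outside heptamers and red triangles are heptamers. Heptamers are in *Nfkbia* and in none of the other 9 genes.

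Promoter windows from 250 bases before to 50 bases after the start site were available for 7 of the 10 genes (RefSeq, GRCm38.p6). They were searched on both strands for a κB-like word, GGGA followed by any 4 bases and CC. On the opposite strand it reads GG, any 4 bases and TCCC, and a match in both readings was counted once. The word was found in 5 of the 7 genes (*Bcl3*, *Nfkb2*, *Nfkbia*, *Rel* and *Rela*). By window, 7 of the 9 windows of the 7 genes held it, 3 of them windows of *Nfkb2*, as did 20.7% of all 32851 promoter windows. The *Nfkb2* windows that start at 46305445 and 46305680 overlap and share a match, so windows are not independent. The share of all genes with the word was not calculated. The windows of *Nfkbib* and *Nfkbie* did not hold these letters. *Nfkb1*, *Relb* and *Nfkbiz* were not in the table. A match for 4 of these genes is shown in capitals to let the words be compared, on the strand of the gene and in GRCm38.p6 coordinates.
Nfkbia promoter, chr12:55492657-55492686: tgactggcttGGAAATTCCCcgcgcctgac
Nfkb2 promoter, chr19:46304688-46304717: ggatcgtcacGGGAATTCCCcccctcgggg
Rel promoter, chr11:23771042-23771071: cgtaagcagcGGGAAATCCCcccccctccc
Bcl3 promoter, chr7:19822734-19822763: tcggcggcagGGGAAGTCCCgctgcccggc
The words shown are examples and not all matches. The word shown began 29 bases before the start site in *Nfkbia*, 39 bases before it in *Nfkb2* and 92 bases before it in *Rel*. In *Bcl3* the word lay just after the start site. The *Nfkbia* window also held a word 212 bases before the start site, and each of the 3 *Nfkb2* windows held 2 words. The match of *Rela*, not shown, began 217 bases before its start site. A match to these letters is a description of the window and not a measured binding site.

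All 10 genes were expressed after 6 h of LPS, and *Nfkbia* was by far the most abundant. *Nfkbia*, which encodes IκBα, the inhibitor that is degraded and resynthesized fastest, was at 230 FPKM in WT (226 to 234) against 211 in ΔM (207 to 216). It ranked 129th among protein-coding genes in WT. Next in WT came *Nfkb1* at 97.3 FPKM (95.1 to 99.4), *Bcl3* at 95.3 FPKM (90.7 to 100) and *Nfkb2* at 90.8 FPKM (88.9 to 92.6). The interval of *Bcl3* overlapped those of *Nfkb1* and *Nfkb2*, so its place between or beside them was not resolved in WT, whereas the intervals of *Nfkb1* and *Nfkb2* did not overlap each other. The lower part of the order in WT was *Nfkbiz*, *Nfkbib*, *Relb*, *Rela*, *Nfkbie* and *Rel*, with intervals that did not overlap between neighbors. These intervals use the median annotated length. At the shortest transcript they would be wider for genes with several transcripts, and whether neighbors would then overlap was not calculated. *Rel*, which encodes c-Rel, was the lowest at 5.69 FPKM in WT (5.22 to 6.19) against 5.12 in ΔM (4.65 to 5.63).

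In ΔM the order differed from that in WT at 1 place. *Bcl3* stood at 99.4 FPKM, with a lower bound of 94.4, above *Nfkb1* at 76.2 FPKM (74.2 to 78.3), and these intervals did not overlap. Further down, *Nfkbib* at 17.6 FPKM (16.1 to 19.2), *Relb* at 15.2 FPKM (14.3 to 16.2) and *Rela* at 14.5 FPKM (13.7 to 15.4) lay so close in ΔM that the interval of *Relb* overlapped both others.

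**Figure D2:**
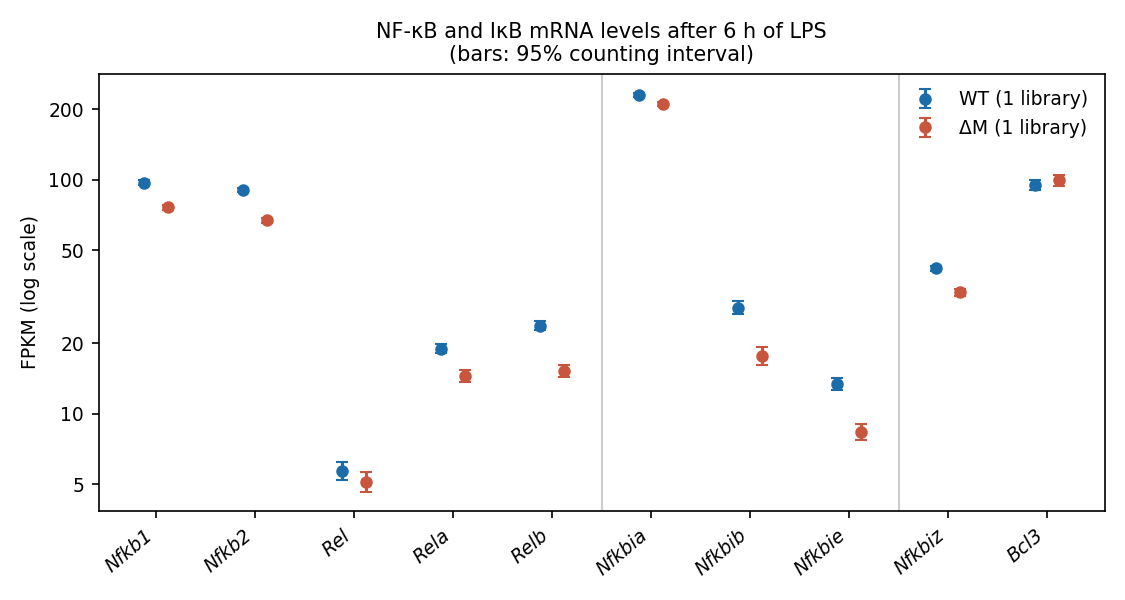
mRNA levels of the 10 genes in the WT library (blue) and the ΔM library (red). The y axis is FPKM on a log scale and bars are approximate 95% counting intervals, which do not cover biological variation. From left to right, gray lines separate subunits, cytoplasmic IκBs and nuclear IκB proteins. *Nfkbia* is the highest and *Rel* the lowest in both libraries.

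Of the 10 genes, 9 were lower in ΔM than in WT and *Bcl3* was not. Among all 10765 genes that averaged 1 FPKM or more, 45.9% were lower in ΔM by any amount and 53.8% were higher. The median log2 ratio of ΔM to WT, after adding 1 FPKM, was -0.36 for the 10 genes and 0.03 for all genes. Over 8078 protein-coding genes the median was -0.001 and 50.2% were lower. A level at least 1.5-fold lower in ΔM was found for 3 of the 10 genes (*Relb*, *Nfkbib* and *Nfkbie*), beside 7.51% of all genes and 5.36% of protein-coding genes. The counting intervals of these ratios of ΔM to WT reached up to 0.691, 0.691 and 0.688, so each included values short of 1.5-fold. A level at least 1.5-fold higher was found for 0 of the 10, beside 11.2% of all genes but only 390 of the 8078 protein-coding genes. With a limit of 25% above the ΔM level, 7 of the 10 were higher in WT, beside 15.5% of all genes, and with a limit of 2-fold 0 were, beside 3.61%. For 8 of the 10 the counting interval of the ratio excluded 1, and the exceptions were *Rel* and *Bcl3*. At these fragment numbers a ratio of 0.918, that of *Nfkbia*, was enough to exclude 1. The share of all genes with such an interval was not calculated, so this count is not read as a trait of the 10 genes. These counts describe 2 libraries and carry no test.

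**Figure D3:**
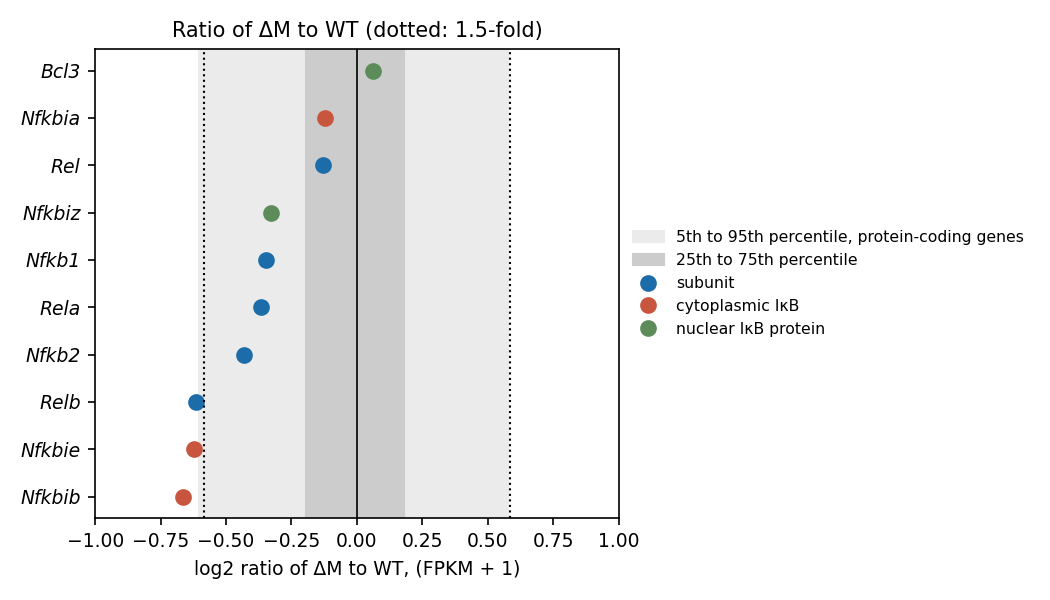
Log2 ratio of ΔM to WT for each of the 10 genes, calculated after adding 1 FPKM, sorted from the highest at the top. The darker gray band spans the middle part of protein-coding genes (25th to 75th percentile, -0.19 to 0.18) and the lighter band the 5th to 95th percentile (-0.60 to 0.58). Of the 10 points, 3 lie past the dotted line at 1.5-fold lower and 1 lies above 0.

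All 5 subunit mRNAs were lower in ΔM. *Relb* encodes RelB, the partner of p52 in the noncanonical pathway. It was at 23.8 FPKM in WT (22.7 to 25) against 15.2 in ΔM, a ratio of 0.639 with a counting interval from 0.590 to 0.691 and a log2 ratio of -0.61. Of protein-coding genes, 4.72% had a lower ratio. The other 4 subunits were nearer to WT. *Nfkb2*, which encodes p100, the precursor of p52 and itself an inhibitor of RelB, had a log2 ratio of -0.43 (ratio 0.740, counting interval 0.716 to 0.764). *Rela*, which encodes p65, the main transactivating subunit after LPS, was at 19.0 FPKM in WT (18.1 to 19.9) against 14.5 in ΔM, a log2 ratio of -0.37. *Nfkb1*, which encodes p105, the precursor of p50, had a log2 ratio of -0.35 (ratio 0.784, counting interval 0.757 to 0.812). *Rel* had a log2 ratio of -0.13, and its ratio of 0.900 had a counting interval from 0.792 to 1.02. The interval of *Rel* included 1. It covers counting error only, as do those of the other subunits, and no difference between the genotypes was tested.

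Among the 3 cytoplasmic inhibitors, *Nfkbib* and *Nfkbie* were 1.62-fold and 1.61-fold higher in WT than in ΔM, while *Nfkbia* was 1.09-fold higher. *Nfkbib*, which encodes IκBβ, was at 28.4 FPKM in WT (26.6 to 30.4) against 17.6 in ΔM. Its log2 ratio of -0.66 was the lowest of the 10 genes, and its counting interval for the ratio ran from 0.553 to 0.691. *Nfkbie*, which encodes IκBε, was at 13.4 FPKM in WT (12.6 to 14.2) against 8.36 in ΔM (7.71 to 9.05), a log2 ratio of -0.62. The *Nfkbia* ratio was 0.918 with a counting interval from 0.894 to 0.944, which did not overlap that of *Nfkbib* or *Nfkbie*. *Nfkbia* was therefore lower in ΔM by 8.17%, against 38.2% for *Nfkbib* and 37.7% for *Nfkbie*. The mRNA with TTP sites and heptamers in its 3′ UTR was the inhibitor with the smallest difference between the libraries. The paper lists this mRNA among those whose TTP sites overlap sites of HuR, a protein that stabilizes mRNA. An effect of TTP binding on the level of this mRNA was not tested, and its decay was not examined here. *Nfkbib* (NCBIM37, chromosome 7, 29543270 to 29552531, minus strand) lies 379 kb from *Zfp36* on the same chromosome, measured between the nearest ends of the genes. A window of 500 kb to either side of *Zfp36* held 16 other protein-coding genes averaging 1 FPKM or more. They ran from -0.515 to 4.995 on this scale, with a median of -0.06. Of these, 0 were at least 1.5-fold lower in ΔM and 1 was at least 1.5-fold higher. That gene, *Plekhg2*, named after its value was seen, had 7.82 FPKM in WT against 280.3 in ΔM. *Relb* and *Bcl3* lie farther off on this chromosome, at 8947 and 8754 kb from *Zfp36*, and the pathway gene *Nfkbid* at 2042 kb. Whether position on the chromosome of the targeted gene bears on any of these levels was not tested. The annotated exons of *Nfkbib* overlap those of *Sirt2* on the opposite strand over 42 nt, and *Sirt2* itself was at 43.9 FPKM in WT against 41.4 in ΔM. Whether fragments were assigned to genes by strand is not given in the sources used here.

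The 2 nuclear members of the IκB family bind NF-κB dimers on DNA and modulate transcription there. *Nfkbiz* encodes IκBζ, which is induced by LPS and is needed for transcription of secondary response genes. It was at 41.8 FPKM in WT (40.7 to 42.9) against 33.0 in ΔM (32.0 to 34.1), a log2 ratio of -0.33. *Bcl3* encodes a partner of p50 and p52 homodimers. With 95.3 FPKM in WT against 99.4 in ΔM it had a log2 ratio of 0.06, and its ratio of 1.04 had a counting interval from 0.970 to 1.12. *Bcl3* lies 179 kb from *Relb* on chromosome 7, and the level of *Bcl3* was 4.00 times that of *Relb* in WT and 6.54 times in ΔM. The exons of *Bcl3* overlap those of *Gm16175*, a noncoding transcript on the opposite strand, over 161 nt.

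Because FPKM is per length, the levels of subunits and inhibitors can be summed. The 5 subunits summed to 237 FPKM in WT against 178 in ΔM. *Nfkb1* and *Nfkb2* made up 79.5% of the sum in WT and 80.4% in ΔM, whereas *Rela* made up 8.03% and 8.14%. The share of *Relb* was 10.1% in WT and 8.54% in ΔM. The 3 cytoplasmic inhibitors summed to 272 FPKM in WT against 237 in ΔM, and *Nfkbia* provided 84.6% and 89.1% of that. The ratio of the inhibitor sum to the subunit sum was 1.15 in WT (counting interval 1.13 to 1.18) and 1.33 in ΔM (1.30 to 1.37). Without *Nfkbia* the order was opposite, with ratios of 0.177 in WT and 0.146 in ΔM. These are ratios of mRNA levels and say nothing of protein amounts.

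**Figure D4:**
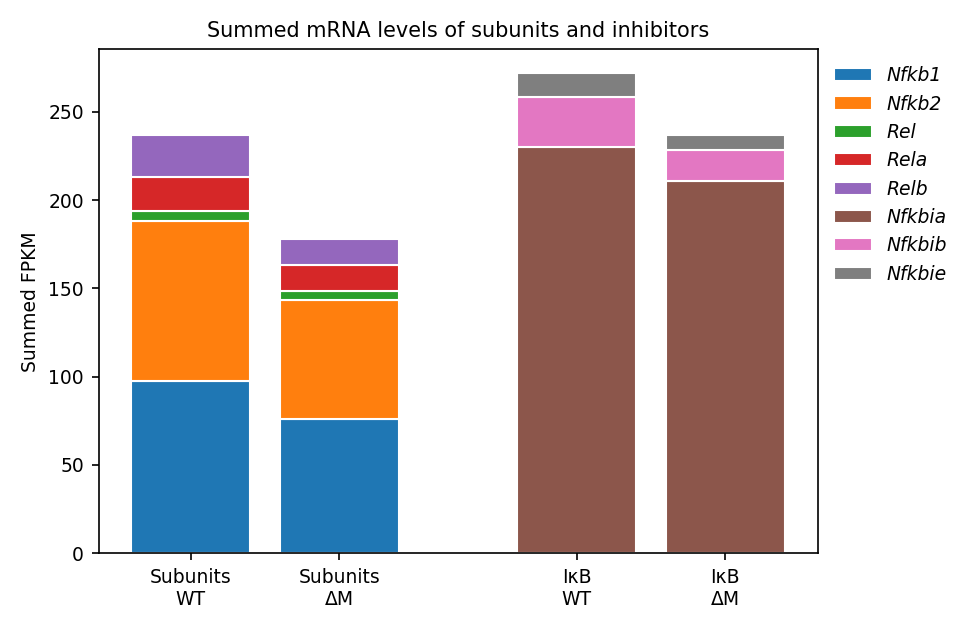
Summed FPKM of the 5 subunit mRNAs (left pair) and of the 3 cytoplasmic IκB mRNAs (right pair) in the WT and ΔM libraries, on a linear axis from 0. Colored segments are single genes. The subunit sum is 237 in WT and 178 in ΔM, and the inhibitor sum is 272 and 237, most of it *Nfkbia*.

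The base composition of the transcripts was examined because 6 of the 10 genes were in the highest of 4 equal groups of protein-coding genes by GC content (55.2 to 76.5%). That group had a median log2 ratio of 0.02, and 4.95% of its genes were at least 1.5-fold lower in ΔM, beside the 5.36% among all protein-coding genes. Whether base composition bears on the ratios of the 10 genes was not tested.

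Other genes of the pathway were described with a list of 32 genes in 4 groups, of which 30 averaged 1 FPKM or more. Of these 30, 18 were lower in ΔM, beside 45.9% of all genes and 50.2% of protein-coding genes. The other 12 were higher, beside 53.8% of all genes. Their median log2 ratio over all 30 was -0.11. At least 1.5-fold lower was 1 gene, *Nfkbid*, beside 7.51% of all genes and 5.36% of protein-coding genes. At least 1.5-fold higher was 1 gene, *Nfkbil1*, beside 11.2% of all genes and 390 of 8078 protein-coding genes.

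Among the 5 IKK and IKK-related kinases the catalytic subunits went apart. *Ikbkb*, which encodes IKKβ, the kinase of the canonical pathway, was at 51.9 FPKM in WT against 36.7 in ΔM, a log2 ratio of -0.49. *Chuk*, which encodes IKKα, was at 10.8 FPKM in WT against 14.3 in ΔM, a log2 ratio of 0.37. The most abundant of the group was *Ikbke*, an LPS-inducible kinase, at 83.6 and 78.3 FPKM. Their group median was -0.13.

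The 10 upstream kinases, TRAFs and cIAPs had a median log2 ratio of 0.03. Of them, 4 were lower in ΔM, beside 45.9% of all genes. *Birc3*, which encodes the ubiquitin ligase cIAP2, was the highest in WT at 40 FPKM against 32.1 FPKM in ΔM. The extremes were low mRNAs. *Map3k14*, which encodes the NIK kinase of the noncanonical pathway, was at 1.27 FPKM in WT against 2 in ΔM, with a counting interval of the ratio that starts at 0.950. *Tab3*, an adaptor of the TAK1 kinase, was at 1.72 FPKM in WT against 1.05 in ΔM.

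Of the 5 measured IκB-like or NF-κB-binding regulators, *Nfkbid* had the lowest log2 ratio. It encodes IκBNS, a nuclear IκB protein, and was at 9.36 FPKM in WT against 4.89 in ΔM (4.34 to 5.49), a log2 ratio of -0.81. *Nfkbil1*, an IκB-like gene, was at 1.24 FPKM in WT against 2.36 in ΔM, which is at the limit of 1.5-fold after adding 1 FPKM. Its exons and those of *Nkiras2* overlap neighboring genes, so both levels are less certain. *Nkiras2*, which encodes a small GTPase that binds IκB proteins, was the most abundant of them and nearly equal at 27.7 and 27.5 FPKM. *Nkiras1* was below a mean of 1 FPKM.

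Of the 10 measured ubiquitin enzymes and their partners, 8 were lower in ΔM, beside 45.9% of all genes and 50.2% of protein-coding genes. Their median log2 ratio was -0.28. *Tnip1*, which encodes the A20-binding protein ABIN1, was the most abundant at 137 FPKM in WT against 99.4 in ΔM. *Tnfaip3*, which encodes A20, a deubiquitinase that ends NF-κB signaling, was at 110 FPKM in WT against 73.2 in ΔM (71.3 to 75.2). Its log2 ratio of -0.58 was just short of 1.5-fold. *Fam105b*, which encodes the deubiquitinase OTULIN, was at 9.72 and 9.98 FPKM. *Btrc*, which encodes the IκB ubiquitin ligase subunit β-TrCP, was below a mean of 1 FPKM.

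**Figure D5:**
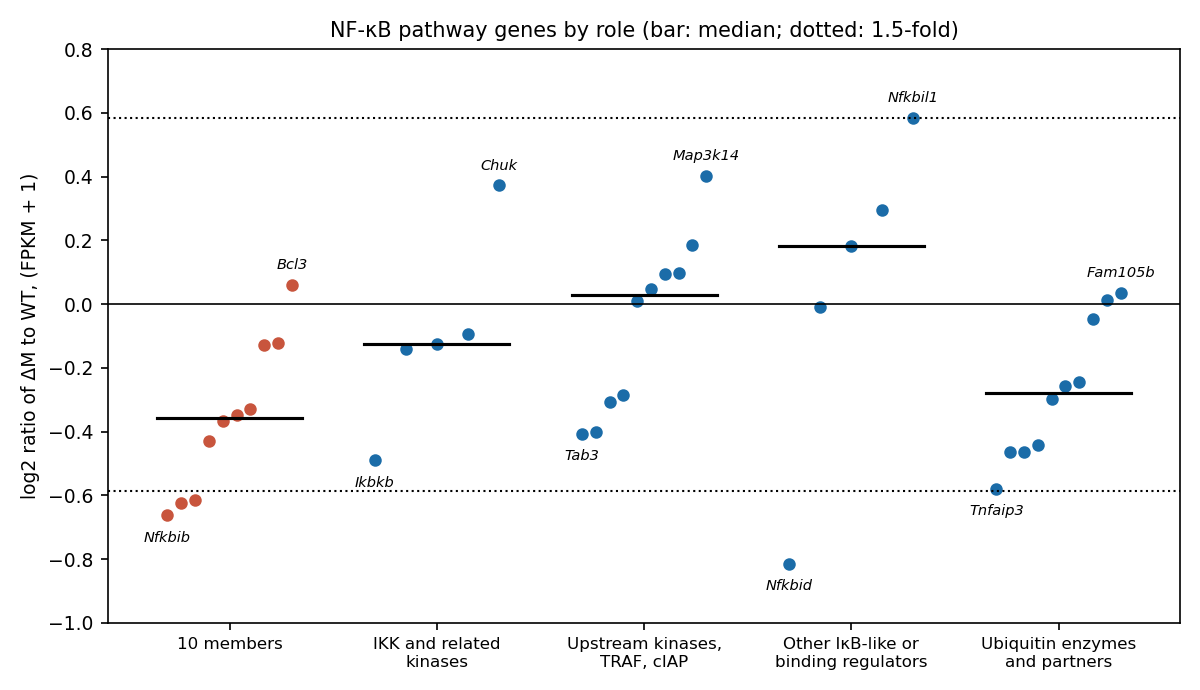
Log2 ratio of ΔM to WT, after adding 1 FPKM, for the 10 genes (red) and for the 30 other measured pathway genes (blue), by role. Each point is a gene, horizontal bars are medians and dotted lines mark 1.5-fold. The 10 genes have the lowest median, -0.36, and the ubiquitin enzymes and partners the next lowest, -0.28.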

How the data were processed

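RNA was depleted of rRNA, fragmented and sequenced in paired ends from 1 WT and 1 ΔM library. The authors trimmed adaptors with Cutadapt, mapped reads to mm9 with Segemehl, kept unique reads and calculated FPKM with Cufflinks on Ensembl exons. The deposited FPKM table has 37451 genes, 1 of them without a number in ΔM, and both value columns were assigned by name. The members and lists were chosen with earlier results of these data known.

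Log2 ratios were calculated after adding 1 FPKM, which understates the change of low genes, over genes averaging 1 FPKM or more. No further scaling was applied. With 1 library per group no test was made, and counts past 1.5-fold are set beside those of all genes.

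To estimate depth, the number and mean length of fragments were varied until low values of genes with 1 annotated transcript came closest to whole fragments. At the best setting (202 nt in WT, 200 nt in ΔM) 93.3% of 1094 values in WT and 94.7% of 1238 in ΔM lay within 0.15 fragments of a whole number. In 3 simulated libraries the number of fragments was recovered. Those libraries were made with the formula that the search inverts, so they cannot show whether the deposited FPKMs follow it. Intervals are 95% Poisson intervals, or exact binomial ones for ratios. For the ratio of summed FPKMs a normal approximation on the log scale was used.

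Named are the 10 members, *Zfp36* and, per pathway group, the gene highest in WT, the extremes of the log2 ratio and genes past 1.5-fold. Others are named for a count or a marker list. Gene models were GENCODE M1 (NCBIM37), which held 37038 of the 37450 genes with both values, and promoters were RefSeq. Python 3.11.15, numpy 2.4.6, pandas 2.3.3, scipy 1.17.1 and matplotlib 3.10.9 were used.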

Additional observations from a re-analysis of the deposited data

How the results depend on the processing

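No paired analysis was possible because WT and ΔM have a single library each, which also means that leaving out a library was not possible. Adding 0.1 FPKM or no FPKM, centring on the median ratio of the genes at 10 FPKM or more (0.04) and scaling to the same protein-coding sum left all 40 log2 ratios of the 10 genes within their counting error and the number lower in ΔM at 9. The median of the 10 stayed between -0.40 and -0.35, and *Zfp36* between -1.97 and -1.90. The number of members past the fold was 0 at 2-fold and 7 with a limit of 25%, and 3 in the other 5 alternatives. For the pathway genes it was 2, and it was 0 at 2-fold, 11 with the limit of 25% and 5 with no pseudocount. It was 0 with a minimum of 10 FPKM, where fewer genes were counted. Of the 11, 8 were lower in ΔM, beside 15.5% of all genes. The other 3 were higher, for which the share of all genes was not calculated. Of the 5 with no pseudocount, 3 were lower and 2 higher in ΔM, again without a share of all genes. *Tab3* and *Map3k14* were among these 5, with counting intervals of the ratio that included 1. With centring, *Nfkbil1* was no longer past 1.5-fold higher, and *Tnfaip3* was past 1.5-fold lower. The ratio of inhibitors to subunits was 0.177 in WT and 0.146 in ΔM without *Nfkbia*, and 5.61 and 6.81 without *Nfkb1* and *Nfkb2*, by construction. Intervals of the ratio, but not of the levels, were also taken at the shortest annotated transcript of at least 300 nt, an alternative chosen after seeing the data. They excluded a ratio of 1 for 8 members, the same number as with the median length. The share of all genes was calculated for neither length. Depth limits low genes most, such as *Tab3* and *Map3k14*, and no interval covers the variation between animals or cultures.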
